A study of Mus musculus with 126 samples.

Results

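The samples described are 18 colon RNA libraries from mice fed a high-salt diet by day, chosen by their treatment label out of 126 samples in the series. The label gives 6 zeitgeber times (ZT, hours after lights on by convention), ZT0, ZT4, ZT8, ZT12, ZT16 and ZT20, with 3 libraries at each. The mice were male C57BL/6, 8 weeks old and of no stated mutant genotype, kept in 12 h of light and 12 h of darkness, with food given for a limited part of the day. The hours of feeding, the salt content of the diet and the days on it are not named by the labels. The one group used for comparison, low salt day fed, had the same strain, sex, age, lighting and times and received a low-salt diet by day, also with 3 libraries at each time (18 in all). The series asks how the timing of salt intake alters daily gene expression in the colon, and the question taken up here is how expression differed between times of day within the high-salt, day-fed group. The labels do not say whether the 3 libraries of a time came from separate animals, so the p-values measure the spread between these libraries, which may be technical.

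Daily rhythms in gene expression come from a transcription feedback loop that runs in most cells. The activators Arntl (also called BMAL1), Clock and Npas2 switch on genes through E-box sequences, among them the repressors Per1, Per2, Per3, Cry1, Cry2 and Ciart and the nuclear receptors Nr1d1 and Nr1d2. Nr1d1 and Nr1d2 (REV-ERB) in turn repress Arntl, Npas2, Cry1 and Nfil3 through ROR elements, and the factors Dbp and Tef act on D-box sequences where Nfil3 represses. In gut epithelium this loop is sensitive to when food is taken.

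To show the control sequences this loop is known for, the 250 bases before each RefSeq start site were searched on both strands for the E-box CACGTG, the D-box TTANGTAA and the ROR element TAGGTCA, and 4 promoters of clock genes that hold a match are printed. Of the 16 clock genes tested, 13 had an entry and 18 windows. Of those 13, 4 held the E-box, 1 the D-box and 1 the ROR element, against 10.2%, 1.65% and 2.12% of the 8312 tested genes that had an entry. Over all 32851 windows the shares were 6.02%, 2.06% and 2.23%. Per2 and Bhlhe40 were among those without an entry. The sequences run 5′ to 3′ on the gene's own strand and end at the base before the start site (GRCm38.p6), and capitals mark the matched motif.
Ciart, 3 E-boxes starting 116, 58 and 44 bases before the start site, chr3:95882229-95882478, minus strand: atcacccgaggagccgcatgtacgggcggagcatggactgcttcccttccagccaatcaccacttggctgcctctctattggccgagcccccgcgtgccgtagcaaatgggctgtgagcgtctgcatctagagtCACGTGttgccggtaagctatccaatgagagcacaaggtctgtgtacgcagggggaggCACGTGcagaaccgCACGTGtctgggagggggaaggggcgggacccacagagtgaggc
Cry1, 1 E-box 60 bases before the start site, chr10:85185055-85185304, minus strand: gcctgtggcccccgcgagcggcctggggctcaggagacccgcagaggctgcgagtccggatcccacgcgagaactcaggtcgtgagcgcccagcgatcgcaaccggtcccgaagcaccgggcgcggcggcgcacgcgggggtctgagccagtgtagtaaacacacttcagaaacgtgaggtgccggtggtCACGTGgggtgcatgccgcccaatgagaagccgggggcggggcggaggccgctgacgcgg
Per3, 2 D-boxes 205 and 158 bases before the start site, chr4:151044666-151044915, minus strand: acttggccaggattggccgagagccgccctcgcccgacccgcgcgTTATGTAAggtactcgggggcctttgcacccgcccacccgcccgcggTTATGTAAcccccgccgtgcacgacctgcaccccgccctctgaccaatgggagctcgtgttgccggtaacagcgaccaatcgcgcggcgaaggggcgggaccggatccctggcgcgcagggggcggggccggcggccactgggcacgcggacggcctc
Nfil3, 1 ROR element 12 bases before the start site, chr13:52981040-52981289, minus strand: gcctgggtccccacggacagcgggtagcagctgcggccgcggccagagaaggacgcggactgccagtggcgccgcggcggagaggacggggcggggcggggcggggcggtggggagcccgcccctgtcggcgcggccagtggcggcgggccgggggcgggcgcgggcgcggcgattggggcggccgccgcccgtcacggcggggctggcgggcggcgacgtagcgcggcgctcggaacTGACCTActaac
A match is a description of letters and not of a bound site. The E-box genes Ciart and Cry1 did not share a phase in these libraries, with fitted peaks at 0.675 h and 8.73 h.

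The deposited values are FPKM (fragment number divided by transcript length and by library size), which keep no read counts. They were rescaled within the group so that most genes had equal levels, and tests were run on log2(FPKM + 0.5) for 10969 of 24883 rows with a mean of at least 1. Every level below is such a rescaled FPKM. Single-read steps among low values put the relative depths within 1.56-fold of each other. A library's length score is the slope of its log2 deviations on log2 transcript length. This score lay above 0.2 in 2 of the 3 libraries labelled ZT0 (0.244 and 0.302) and in 1 labelled ZT4 (0.223), was -0.165 to 0.0183 at ZT12, and followed the main axis of variation among the 18 libraries, which held 45.1% of the variance. In RNA pooled from many cells, fewer cells of a type and less RNA per cell cannot be told apart.

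Markers fitted the colon label and an epithelium-rich preparation. The 10 general epithelial markers summed to 8460 to 14500 in the 18 libraries and the 12 surface colonocyte markers to 11400 to 18800. The 10 smooth muscle markers summed to 3.72 to 7.78, with Cnn1, Des, Lmod1, Myh11 and Synm averaging below 0.05, and the 9 fibroblast and endothelial markers to 0.267 to 1.54. The 8 pancreatic genes summed to 74.1 to 242, of which Cela1 made up 74 to 242 and the other 7, Prss1, Cpa1 and Pnlip among them, at most 0.249. The 6 fat markers summed to 2.46 to 5.74, of which Cidec made up 1.6 to 5.58, while Adipoq, Lep and Plin1 averaged below 0.05. T cell markers (7 genes) summed to 10.6 to 72.9.

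In the libraries labelled ZT0 and ZT12 clock genes ran opposite to what the other 4 times and the low-salt group gave, and this is set out before the results because it touches every result that uses those times. In low salt day fed, Nr1d1 stood at 30.8, 26.1 and 35.6 at ZT0 and at 1.76, 3.37 and 3.09 at ZT12. In high salt day fed the libraries labelled ZT0 held 1.16, 1.59 and 2.11 and those labelled ZT12 held 33.1, 36 and 36.2. The 3 libraries of each label stood together and the labels did not overlap. The 4 times ZT4, ZT8, ZT16 and ZT20 are therefore described first and on their own, and ZT0 and ZT12 after them under their labels as deposited. Whether those labels are correct was not tested.

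Over ZT4, ZT8, ZT16 and ZT20, 357 genes (3.25% of those tested) differed among the times and 332 (3.03%) fitted a 24 h cosine (limma, Benjamini-Hochberg adjusted p under 0.05; 1898 and 1843 at an unadjusted p under 0.05). ZT4 stood most apart: 452 genes (4.12%) differed between ZT4 and ZT16, 432 between ZT4 and ZT20 and 158 between ZT4 and ZT8. Far fewer genes separated the other pairs, with 39 between ZT8 and ZT16, 15 (0.137%) between ZT8 and ZT20 and 5 between ZT16 and ZT20. Of the genes that differed between ZT4 and ZT16, 166 were higher at ZT4 (1.51% of those tested) and 286 lower (2.61%). On the values as deposited, without rescaling, the median gene was 0.31 higher at ZT4 on the log2 scale, and 71 genes were called, of which 85.9% were higher against 36.7% after rescaling. The call count rested on single libraries. Leaving out library 3 at ZT4 gave 144 genes between ZT4 and ZT16, and leaving out library 2, 1 or 3 at ZT16 gave 184, 256 and 1329.

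**Figure D1:**
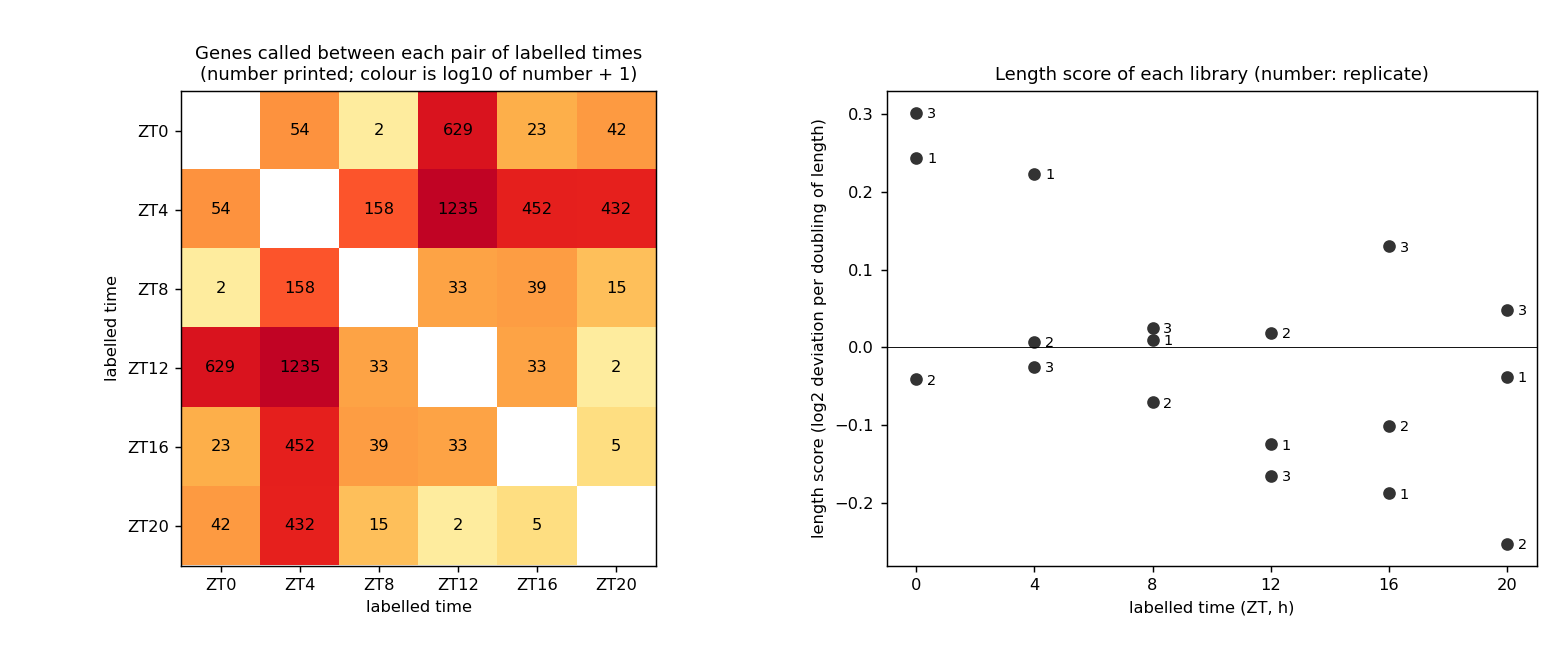
Left: number of genes called between each pair of labelled times (limma, adjusted p under 0.05), with ZT4 against ZT16 at 452 and ZT8 against ZT20 at 15. Right: length score of each of the 18 libraries by labelled time, with the replicate number beside each point; the 3 highest points are 2 libraries labelled ZT0 and 1 labelled ZT4.

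Of the rhythmic genes, 42.5% peaked between 12 and 16 h, 21.4% between 0 and 4 h, 18.1% between 4 and 8 h and 13.6% between 16 and 20 h. Between 8 and 12 h lay 3.92% and between 20 and 24 h 0.602%. Their median amplitude was 0.46 on the log2 scale, against 0.15 over all tested genes, and 17 reached 1. With 4 times a peak is the time of the best 24 h cosine, and a single high time, as in several chaperones below, gives a peak near it.

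Clock genes carried the largest rhythms. Of the 20 names on the clock list 16 were tested, and 14 of the 16 differed among the 4 times and 14 fitted a rhythm. Rora, Hlf and Bhlhe41 never exceeded 0.146, and the symbol Bmal1 is listed as Arntl. The median amplitude over the 16 was 0.98, against 0.15 over all genes. Leaving out any single library left both counts at 14. ZT0 and ZT12 were set apart because of how clock genes looked there. The clock results over the 4 remaining times depend on that split and are a description.

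Nr1d1, on chromosome 11 (98767932 to 98775333, minus strand, mm10), is the repressor that links the arms of the loop. It measured 13.2, 10.5 and 9.31 at ZT4, 1.51, 1.91 and 2.16 at ZT8, 17.2, 13.6 and 9.23 at ZT16 and 36.6, 31.1 and 21.4 at ZT20. The 3 libraries at ZT8 lay below all others of the 4 times and those at ZT20 above them. The difference of ZT8 from ZT20 was -3.65 ± 0.23 (log2, SE, n = 3 per time; limma adjusted p = 8.1e-07), and the amplitude was 2.04 ± 0.15 with a peak at 21.8 h. Its relative Nr1d2 measured 11.8, 9.73 and 10.3 at ZT4 and 4.22, 3.6 and 5.08 at ZT16, with a peak at 0.863 h.

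Dbp, a D-box activator and a direct target of the loop (chromosome 7, 45705088 to 45710203, plus strand), had the largest amplitude of the 332 rhythmic genes, 2.49 ± 0.21, with a peak at 0.788 h. It measured 11.1, 14.8 and 14.6 at ZT4, 2.3, 3.18 and 2.82 at ZT8, 1.06, 0.835 and 0.789 at ZT16 and 15.5, 10.2 and 4.56 at ZT20. Every library at ZT4 lay above every library at ZT8 and ZT16, while ZT20 spread more widely. ZT4 exceeded ZT16 by 3.32 ± 0.30 (log2, SE; limma adjusted p = 2.8e-05).

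Ciart, a repressor of the loop, had an amplitude of 1.77 ± 0.17 and a peak at 0.675 h, and stood at 4.51, 3.82 and 3.44 at ZT4 against 0.316, 0.569 and 0.342 at ZT16. Tef, the partner of Dbp, held 19.4, 19.3 and 20.7 at ZT4, 9.87, 10.2 and 10.3 at ZT8, 3.74, 3.13 and 2.97 at ZT16 and 13.4, 12.3 and 5.39 at ZT20, and peaked at 2.09 h. Dbp, Ciart and Tef were thus all high at ZT4 and low at ZT16.

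The period genes peaked later. Per3 peaked at 3.30 h and Per2 (chromosome 1, 91415982 to 91459324, minus strand) at 3.78 h, with Per2 at 14.6, 11.8 and 10.9 at ZT4, 6.97, 4.94 and 4.65 at ZT8, 1.49, 1.88 and 2.47 at ZT16 and 2.93, 2.23 and 1.86 at ZT20. The Per2 libraries at ZT4 lay above all others of the 4 times, and ZT16 and ZT20 overlapped. ZT4 exceeded ZT16 by 2.41 ± 0.21 (log2, SE; limma adjusted p = 2.8e-05). Per1, which glucocorticoid and aldosterone signals also regulate, did not pass the rhythm test over these times (limma adjusted p = 0.18).

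Bhlhe40, a repressor at E-boxes, peaked at 4.37 h, Cry2 at 5.61 h and Cry1 at 8.73 h. Cry1, the late repressor of the loop, held 10.4, 8.45 and 10.5 at ZT8 against 2.24, 1.75 and 3.32 at ZT20. Its libraries did not overlap between those times, and ZT8 exceeded ZT20 by 1.84 ± 0.18 (log2, SE; limma adjusted p = 0.00014).

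Of the genes named above that REV-ERB represses, Arntl, Npas2 and Nfil3 made up the opposite phase, while Cry1 peaked earlier, at 8.73 h. Arntl (chromosome 7, 113207465 to 113314126, plus strand) measured 3.03, 2.61 and 3.44 at ZT4, 10.4, 8.49 and 6.6 at ZT8, 8.27, 8.55 and 11 at ZT16 and 4.98, 2.95 and 7.2 at ZT20, with a peak at 12.7 h and an amplitude of 1.13 ± 0.17. Its libraries at ZT4 lay below all of those at ZT8 and ZT16. Npas2, which pairs with Arntl, peaked at 13.8 h and the D-box repressor Nfil3 at 12.2 h, with Nfil3 at 4.65, 4.06 and 3.36 at ZT4 against 9.59, 10.1 and 8.39 at ZT16. Clock itself did not pass the rhythm test (amplitude 0.11 ± 0.12, limma adjusted p = 0.85).

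Of the 16 clock genes, 9 were higher at ZT4 than at ZT16 and 3 lower, beside 1.51% and 2.61% of all genes. Between ZT8 and ZT20, 3 were higher at ZT8, among them Cry1 and Nfil3, and Nr1d1 was lower, 4 of the 15 genes called in that comparison (0.082% and 0.0547% of all genes in the 2 directions).

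The 4-time rhythm of clock genes was set against low salt day fed, with each table rescaled by itself and only differences between times compared. Of the 14 genes, 13 were rhythmic in both groups. In all 13 the fitted peak lay earlier in the high-salt group, by a median of 1.91 h, with signed differences from -4.32 h (Per2) to -0.249 h (Arntl). The amplitude was larger in the high-salt group in 12 of the 13, all but Nr1d2, with a median ratio of 1.47. The rhythm itself tested as different for 7 of the 16 genes tested, among them Ciart, Cry1, Dbp, Nfil3, Nr1d1 and Per2, beside 1.20% of all genes (limma on 36 libraries, adjusted p from 0.000839 to 0.0135). For the other 9 the difference did not pass the threshold, which does not show that the rhythms were alike. These clock comparisons too rest on times kept after ZT0 and ZT12 were set apart by clock genes, and are a description. Over all genes 132 differed in rhythm, 67 without library 3 at ZT4 or library 2 at ZT8, 75 without library 2 at ZT4, 83 without library 1 at ZT20 and 348 without library 1 at ZT4.

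**Figure D2:**
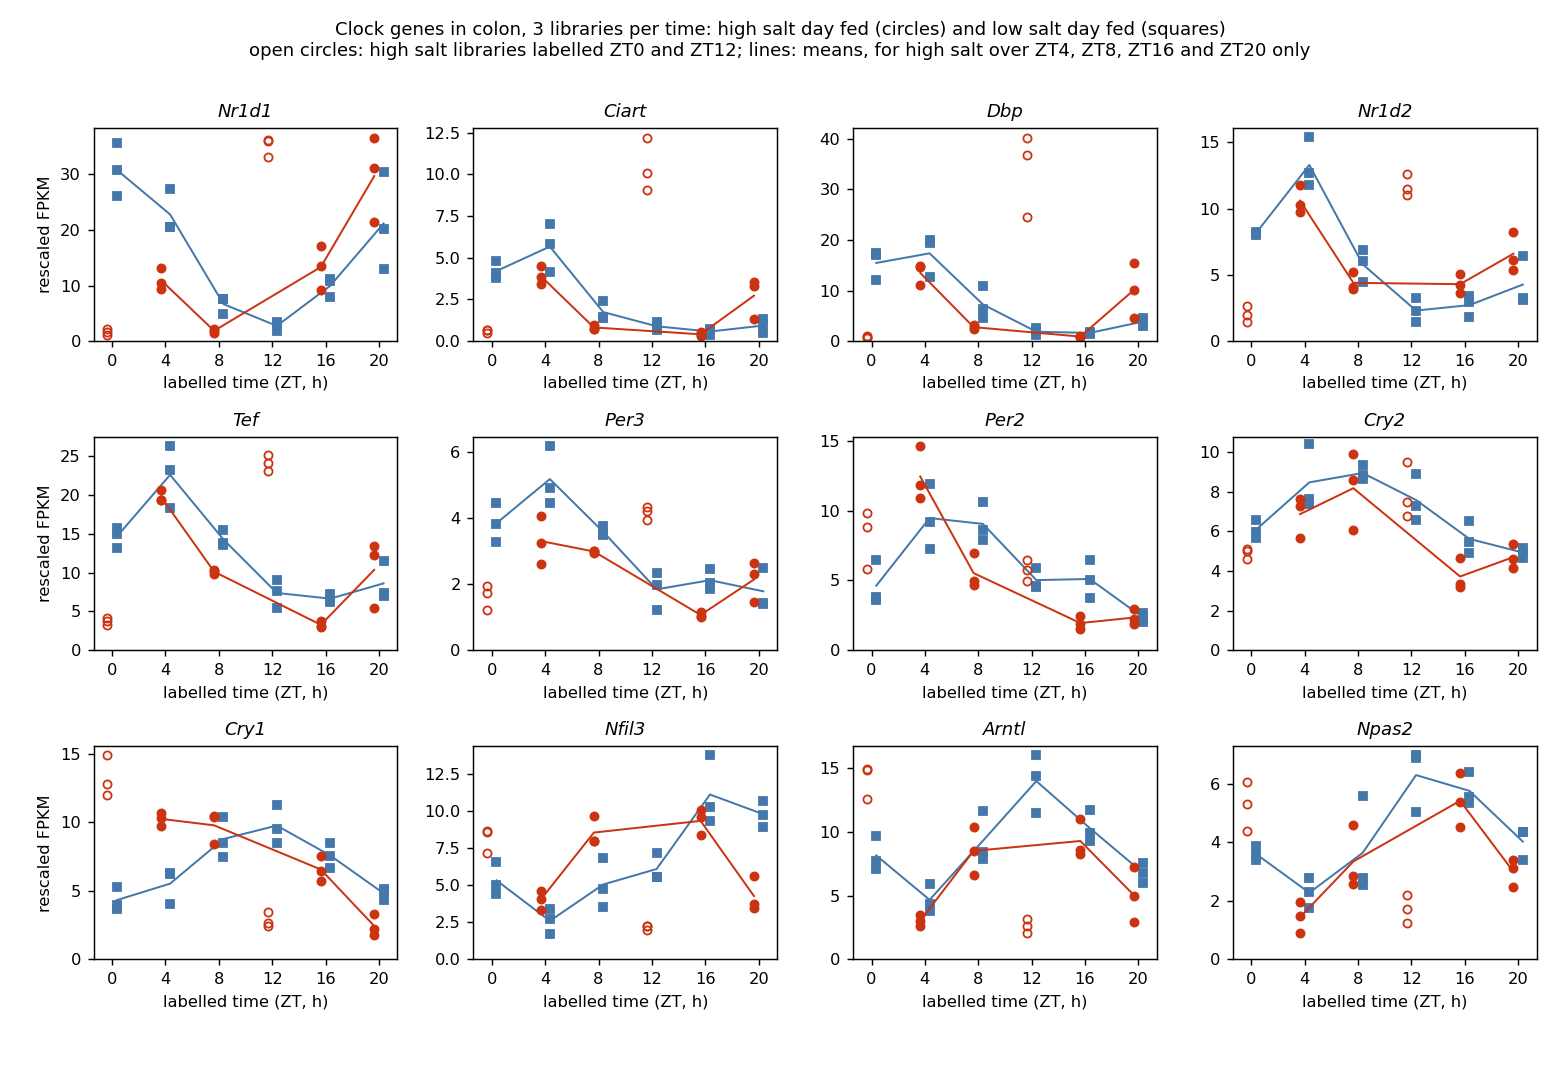
Rescaled FPKM of 12 clock genes (vertical axes from 0) against labelled time in h, with 1 point per library: circles for high salt day fed, squares for low salt day fed, lines through the means, for high salt over ZT4, ZT8, ZT16 and ZT20 only. The open circles are the high-salt libraries labelled ZT0 and ZT12; for Nr1d1 they sit at 1.16 to 2.11 and 33.1 to 36.2, opposite to the squares.

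Genes that commonly follow the clock gave fewer calls. Of 11 tested clock-linked output genes, 3 differed among the 4 times, Por, Usp2 and Lonrf3, beside 3.25% of all genes, and 1 to 4 did when any 1 library was left out. Usp2, a deubiquitinase linked to both the clock and aldosterone-regulated sodium uptake, held 11.9, 15.6 and 17.8 at ZT4 against 6.2, 6.21 and 7.52 at ZT16. It was also the only one of 15 tested genes for sodium uptake and aldosterone response to pass over the 4 times. The channel subunits Scnn1a and Scnn1b, the kinase Sgk1 and the mineralocorticoid receptor Nr3c2 were among the 14 that did not.

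Of 18 genes for sodium chloride exchange and anion transport, 1 passed over the 4 times. Neither this count nor the 1 of 15 for sodium uptake is a result about its list, beside 3.25% of all genes. The 1 gene was Car2, a carbonic anhydrase that supplies acid and base for electroneutral sodium uptake. It held 430, 501 and 593 at ZT4 and 282, 350 and 322 at ZT16, which did not overlap, and ZT4 exceeded ZT16 by 0.67 ± 0.15 (log2, SE; limma adjusted p = 0.019). Its rhythm no longer passed without library 3 at ZT4 or on the values as deposited. None of 5 potassium transport genes or of 6 aquaporin and guanylin genes passed, and these counts too are not a result about their lists. The glucose and sodium cotransporter gene Slc5a1, 1 of 12 nutrient transporters, held 46.6, 39.7 and 46.4 at ZT4 against 25.6, 28 and 35.7 at ZT16 (0.57 ± 0.12, limma adjusted p = 0.015), and 0 to 2 of the 12 were higher at ZT4 when any 1 library was left out.

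Most heat shock genes, which encode chaperones that hold and refold proteins, were higher at ZT4 than at ZT16. Of 13 tested, 8 differed among the 4 times (beside 3.25% of all genes), 9 were higher at ZT4 than at ZT16 (beside 1.51%) and 0 lower (beside 2.61%), and the median difference was 1.17 on the log2 scale, against 0.00 over all tested genes. Hspa8, the constitutive HSP70 (chromosome 9, 40800984 to 40810087, plus strand), measured 1940, 2820 and 2790 at ZT4, 687, 644 and 591 at ZT8, 727, 666 and 564 at ZT16 and 750, 750 and 552 at ZT20. Each library at ZT4 exceeded every library of the other 3 times by more than the range within them. ZT4 exceeded ZT16 by 1.93 ± 0.18 (log2, SE; limma adjusted p = 2.8e-05).

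Its co-chaperone Dnaja1 held 59, 63.2 and 71.1 at ZT4 and 13 to 18.8 in the 9 libraries at ZT8, ZT16 and ZT20. Hsph1, a nucleotide exchange factor for HSP70, held 76.6, 87.3 and 82.1 at ZT4 and 5.47 to 21.3 in those 9. Both were again highest in all 3 libraries at ZT4. Bag3, another HSP70 co-chaperone, held 26.9, 26.3 and 30.5 at ZT4 and 13.5 to 16.4 in the 9.

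The inducible HSP70 genes Hspa1a and Hspa1b showed the widest difference of any called gene between ZT4 and ZT16, 3.46 ± 0.80 and 3.48 ± 0.70 (log2, SE; limma adjusted p = 0.026 and 0.011). They are near-identical copies whose reads can be exchanged, so they count as 1 uncertain observation, and neither passed without library 3 at ZT4 or without library 2 at ZT16. Hspa1b held 122, 102 and 115 at ZT4 and 3.6 to 33.4 in the 9 libraries of the other 3 times. The mitochondrial chaperonins Hspd1 and Hspe1, Dnajb1 and the regulator Hsf1 did not pass between ZT4 and ZT16.

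Cirbp, an RNA-binding protein whose RNA is known to accumulate in the cold and to fall in the heat, ran the other way. It held 7.59, 7.75 and 7.31 at ZT4, 25.5, 36.9 and 27.6 at ZT8, 24.6, 27 and 15.7 at ZT16 and 25.5, 34.3 and 27.9 at ZT20. The 3 libraries at ZT4 were below all 9 others, by 1.47 ± 0.20 against ZT16 (log2, SE; limma adjusted p = 0.00074). Its relative Rbm3 did not pass.

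The heat shock count between ZT4 and ZT16 was 5 of 13 without library 2 at ZT16 and without library 3 at ZT4. With the length score added as a covariate it was 9, as without that term. In the low-salt group the means of Hspa8 ran 1160 at ZT4, 1010 at ZT8, 1530 at ZT16 and 776 at ZT20, with a fitted peak at 12.1 h against 1.86 h here. The rhythm differed between the groups for 4 of the 13 genes, beside 1.20% of all genes. Among the 5 genes outside the clock list with the smallest adjusted p for a differing rhythm were Hspa8, Dnaja1, Rbmx and P4ha1 (limma adjusted p from 1.02e-06 to 0.000839). Rbmx, an RNA-binding protein, peaked at 18.2 h here and at 1.90 h in low salt day fed. The rhythm of Cirbp differed too (limma adjusted p = 0.00084), with low-salt means of 19.2 at ZT4, 22.5 at ZT8, 16.9 at ZT16 and 33.6 at ZT20.

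Some genes for folding and stress in the endoplasmic reticulum were also higher at ZT4. Of 20 tested, 9 differed among the 4 times (beside 3.25% of all genes), 7 were higher at ZT4 than at ZT16 (beside 1.51%), 0 were lower and 13 did not pass, with a median difference of 0.61. Hspa5 (BiP), its main HSP70, held 458, 410 and 422 at ZT4, 110, 140 and 155 at ZT8, 111, 194 and 266 at ZT16 and 126, 118 and 162 at ZT20. All 3 libraries at ZT4 exceeded all 9 others, while ZT16 overlapped ZT8 and ZT20. Creld2, a secreted folding factor, held 58.5, 73.1 and 67.9 at ZT4 against 21.8 to 47.5 in the 9 others, and Herpud1, part of the degradation machinery for misfolded proteins, 74.7, 57.2 and 58.3 against 31.6 to 50.3.

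The stress regulators Atf4 and Ddit3 on the same list did not pass. The number higher at ZT4 was 2 to 4 when any 1 of 7 libraries was left out (1 at ZT0, 1, 2 or 3 at ZT4, 2 at ZT8, 1 or 2 at ZT16), 12 without library 3 at ZT16, 2 without the filter on low values, 3 without the libraries of length score above 0.2, 1 on the values as deposited and 11 with the spread pooled over 72 libraries. The number differing among the 4 times was 3 without library 2 or 3 at ZT4. Plasma cells are secretory cells rich in these chaperones. The 7 markers of B and plasma cells summed to 89.3 to 105 at ZT4 and to 38.7 to 81.1 at the 5 other times. Of this, Xbp1, which is also on the endoplasmic reticulum list, made up 88.6 to 98.4 and 37.6 to 76.2. The other 6 markers summed to 6.42, 1.18 and 0.662 at ZT4, within or below the 1.13 to 5.81 of the other times except in library 1. Jchain, the defining plasma cell gene, held 4.51, 0.786 and 0.327 at ZT4 and 1.45, 2.15 and 2.04 at ZT16. The part of plasma cells in the ZT4 differences was not tested.

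Most genes of G2 phase and mitosis were lower at ZT4 than at ZT16. Of 19 tested, 11 were rhythmic (beside 3.03% of all genes), 12 were lower at ZT4 than at ZT16 (beside 2.61%) and 0 higher (beside 1.51%), with a median difference of -0.92, and the mean peak of the rhythmic members was 16.3 h. Cdc20, an activator of the anaphase-promoting complex (chromosome 4, 118432901 to 118437352, minus strand), held 10.8, 12.4 and 9.5 at ZT4, 11.8, 11.7 and 12.5 at ZT8, 19.1, 26.9 and 27.2 at ZT16 and 18.7, 25.6 and 25.2 at ZT20. The 6 libraries at ZT4 and ZT8 lay below the 6 at ZT16 and ZT20. ZT4 was lower than ZT16 by 1.12 ± 0.15 and ZT8 lower than ZT20 by 0.91 ± 0.15 (log2, SE; limma adjusted p = 0.00074 and 0.025). The second of these calls was lost without any 1 library at ZT8 and without library 2 or 3 at ZT20.

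Birc5 (survivin), a chromosomal passenger protein, held 18.2, 23.7 and 17.8 at ZT4 against 42.8, 53.3 and 46.1 at ZT16. Aurka, a spindle kinase, held 6.07, 6.81 and 5.85 at ZT4 against 10.7, 13.4 and 13 at ZT16. Neither overlapped between those times. Outside the list, the centromere protein gene Cenpa and the spindle gene Knstrn were among the 5 genes most lowered at ZT8 against ZT20 (-0.92 ± 0.15 and -0.89 ± 0.12).

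None of 15 S-phase genes passed over the 4 times, and their median difference between ZT4 and ZT16 was 0.00. Beside 3.25% of all genes, that count is not a result about the list. The mitotic call depends on scaling and on libraries: on values as deposited 0 of 19 were called, with a median of -0.62 while the median of all genes was 0.31. Between ZT4 and ZT16 4 of the 19 were lower without library 3 at ZT4, 5 without library 2 at ZT16, and 18 once the length score was a term of the fit. The rhythmic members were 5 without library 3 at ZT4 or library 2 at ZT16. In low salt day fed the Cdc20 means ran 14.2, 12.5, 17.6 and 23.4 over the same times. The rhythm differed between the groups for 0 of the 19 genes, beside 1.20% of all genes. That count is not a result about the list and does not show that the rhythms were alike.

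Some lipid synthesis genes were higher at ZT4 than at ZT16. Of 10 fatty acid synthesis genes 5 differed among the 4 times (beside 3.25% of all genes), 4 were higher at ZT4 than at ZT16 (beside 1.51%) and 3 higher at ZT8 than at ZT20 (beside 0.082%). Scd2, a desaturase that makes monounsaturated fatty acids (chromosome 19, 44293674 to 44306864, plus strand), held 279, 186 and 198 at ZT4, 194, 178 and 209 at ZT8, 38.1, 62 and 62.7 at ZT16 and 70.3, 82.6 and 83.6 at ZT20. The 6 libraries at ZT4 and ZT8 lay above the 6 at ZT16 and ZT20, and ZT4 exceeded ZT16 by 2.03 ± 0.21 (log2, SE; limma adjusted p = 8.9e-05). Its relative Scd1 held 12.7, 11.4 and 11.3 at ZT8 against 2.43, 2.18 and 3.34 at ZT20.

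Srebf1, the transcription factor that drives fatty acid synthesis genes, held 26.1, 27 and 26.2 at ZT8 against 13.7, 15.8 and 16.1 at ZT20. Acaca, the carboxylase of the committed step, held 8.89, 8.5 and 8.32 at ZT8 and 5.15, 4.94 and 5.71 at ZT16. Acly, which supplies acetyl-CoA, was the fifth to differ among the times. Fasn, Elovl6, Me1, Acacb and Mlxipl did not pass.

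Of 20 cholesterol synthesis and regulation genes 9 differed among the 4 times (beside 3.25% of all genes) and 7 were higher at ZT4 than at ZT16 (beside 1.51%), with 0 lower and a median of 0.64. Between ZT8 and ZT20 0 of the 20 were called, beside 0.137% of all genes. Dhcr7, the last step of cholesterol synthesis, held 38.4, 36.2 and 37.4 at ZT4, 40.4, 42 and 39.3 at ZT8, 21.2, 26.3 and 23.7 at ZT16 and 28.8, 29.1 and 29.8 at ZT20. None of the 4 times overlapped another. Sqle, the squalene epoxidase, exceeded ZT16 at ZT4 by 0.97 ± 0.19 (adjusted p = 0.0099).

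The number of cholesterol genes differing among the 4 times was 3 without library 2 at ZT16 or library 3 at ZT4, 4 without library 1 at ZT16 and 5 without any 1 library at ZT8. Their count between ZT4 and ZT16 was 1 without library 2 at ZT16, 2 without library 1 at ZT16 or library 1 or 3 at ZT4, 12 without library 3 at ZT16, 1 without the libraries of length score above 0.2 and 0 on the values as deposited. For fatty acid synthesis it was 1 without library 1 at ZT16, 2 without library 2 at ZT16 or library 1 at ZT4, 2 without the libraries of length score above 0.2 and 1 on the values as deposited, and its count between ZT8 and ZT20 was 1 when any 1 library of those times was left out.

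Fat-burning genes gave 2 calls of 19 between ZT4 and ZT16, the thioesterase genes Acot1 and Acot2, both lower at ZT4 (beside 2.61% of all genes), and 1 to 3 when any 1 library was left out. They are neighbouring copies of similar sequence, so their reads may be exchanged. Acot1 held 2.03, 2.63 and 2.66 at ZT4 against 5.42, 7.21 and 6.58 at ZT16.

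**Figure D3:**
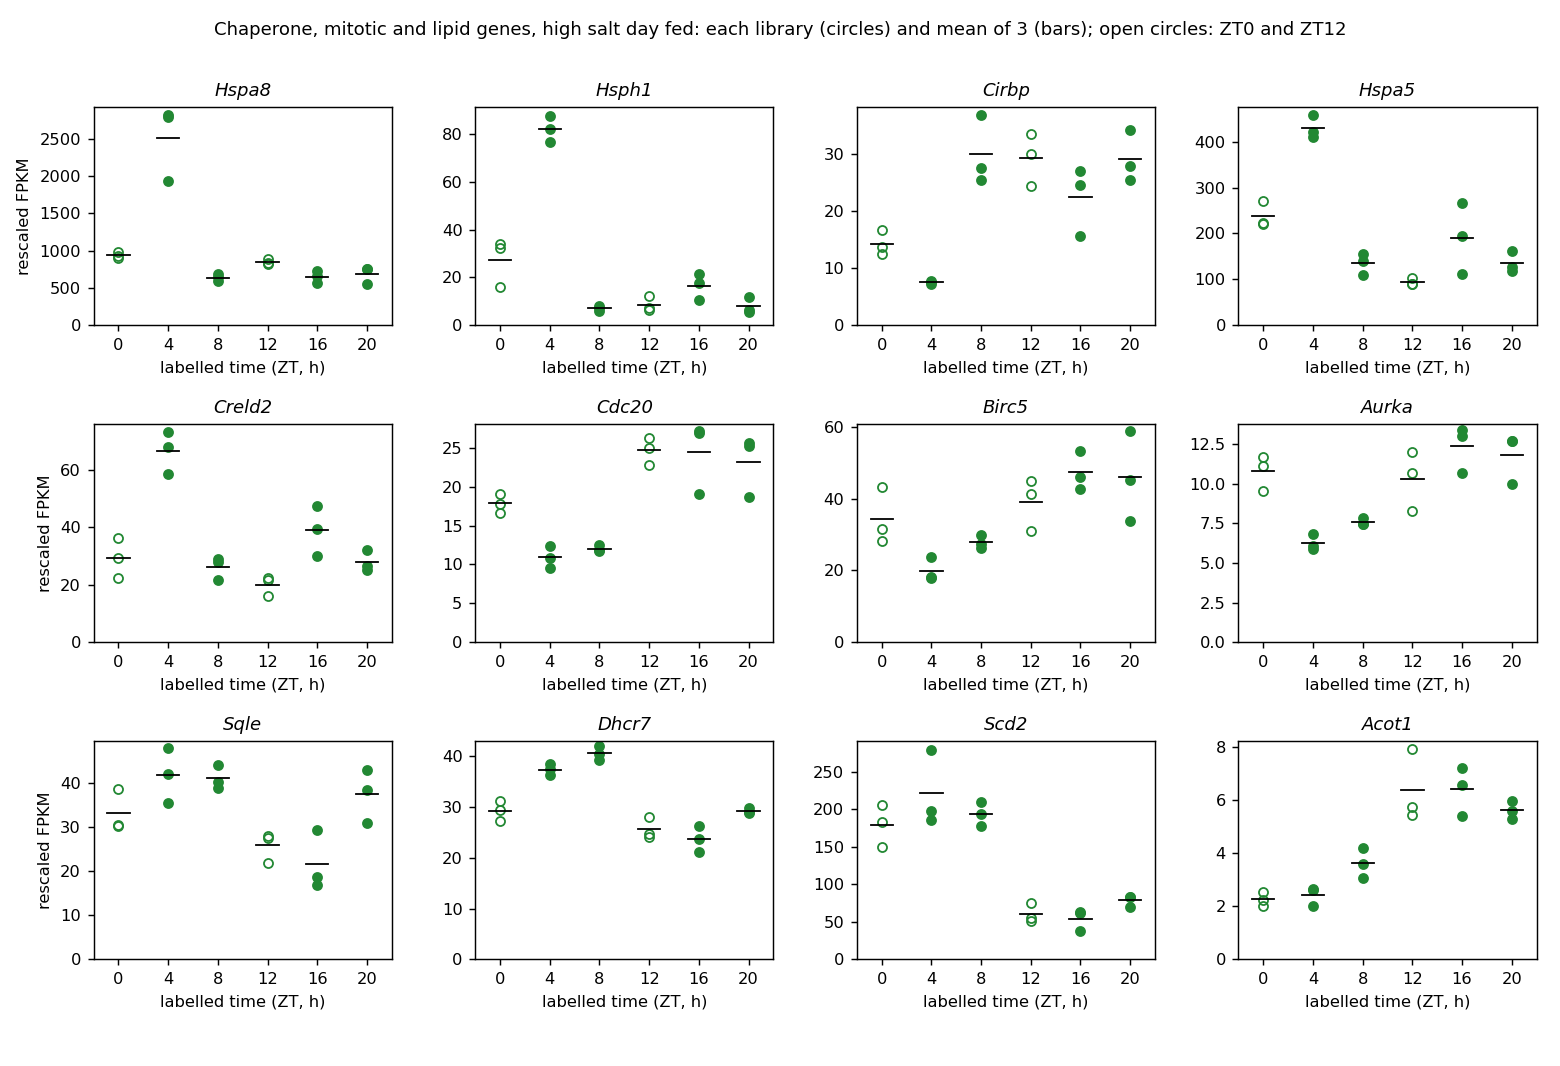
Rescaled FPKM (vertical axes from 0) of 12 chaperone, mitotic and lipid genes in each high-salt, day-fed library against labelled time in h, with bars for the mean of 3 and open circles for ZT0 and ZT12. Hspa8 sits at 1940 to 2820 at ZT4 and at 552 to 750 at ZT8, ZT16 and ZT20, and Cirbp at 7.31 to 7.75 at ZT4.

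Leaving aside symbols on several rows, such as Hba-a1, the haemoglobin genes Hbb-b1 and Hbb-b2, which share much of their sequence and mark red blood cells, were lowered most at ZT4 against ZT16. Both calls were lost without library 3 at ZT4 and without library 2 at ZT16. Hbb-b1 held 14, 23.6 and 17.5 at ZT4, 53.7, 130 and 72.1 at ZT16 and 21.2, 22.5 and 72.1 at ZT20. It was highest in the 3 libraries at ZT16 and 1 at ZT20, though library 1 at ZT12 held 42.5. The blood content of the libraries was not tested. Next came Tgfbr3l, Npas2 and Nupr1, a stress-response cofactor at 47.7, 109 and 101 at ZT4 and 468, 232 and 141 at ZT16. Summed macrophage and granulocyte markers (8 genes) were 2.3 to 6.5 at ZT4 and 7.22 to 12 at ZT16, and the macrophage gene Cd68 was lower at ZT4 (-1.50 ± 0.37, limma adjusted p = 0.035). The part of these cells in the ZT4 to ZT16 differences was not tested.

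No gene differed over the 4 times among 16 interferon, 6 MHC class II, 14 antimicrobial and defence, 11 nutrient signalling and 14 immediate early genes. None did among the markers of surface colonocytes (12), goblet cells (10), enteroendocrine cells (9) or stem and crypt base cells (11), nor among 15 ribosomal protein and 15 respiratory chain genes (limma adjusted p under 0.05, with 1898 of all genes at an unadjusted p under 0.05). Leaving out 1 library gave at most 1 call in each of these lists. Beside 3.25% of all genes, 0 calls in lists of this size are not a result about them. Among the immediate early genes, Egr2 alone was lower at ZT4 than at ZT16, and 7 of the 14 were lower without library 3 at ZT16 against 0 without library 1 or 2 there or library 3 at ZT4.

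In the libraries labelled ZT0 and ZT12 the clock genes did not continue the rhythm of the other 4 times. These 2 labels were set apart because clock genes looked out of phase at them, so the clock values and counts given for ZT0 and ZT12 describe what prompted that split and are not independent evidence for it. The cosine fitted to ZT4, ZT8, ZT16 and ZT20 gives for each gene the difference of ZT0 from ZT12 that a 24 h rhythm would have. For 12 of the 14 rhythmic clock genes the measured difference had the opposite sign, all but Per2 and Bhlhe40. The sign was also opposite to that in low salt day fed for 12 of the 14, whereas the fitted and the low-salt signs were opposite for 2.

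Dbp measured 0.622, 0.801 and 0.92 in the libraries labelled ZT0 and 40.2, 36.9 and 24.6 in those labelled ZT12. The difference of ZT0 from ZT12 was -4.72 ± 0.30 on the log2 scale where the cosine gave 4.87, a departure of -9.60 ± 0.53 (SE). In low salt day fed Dbp held 17, 12 and 17.4 at ZT0 and 1.12, 1.97 and 2.5 at ZT12. For Nr1d1 the difference was -4.09 ± 0.23 where the cosine gave 3.42. Both genes were low at the label where low salt had them high.

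Arntl, Cry1 and Nfil3 moved the opposite way. Arntl measured 14.8, 12.6 and 14.9 at ZT0 and 2.06, 3.17 and 2.64 at ZT12, a difference of 2.24 ± 0.24 where the cosine gave -2.22 and low salt day fed -0.74. Cry1 held 14.9, 12.8 and 12 at ZT0 and 2.46, 3.49 and 2.63 at ZT12, and Nfil3 7.16, 8.6 and 8.67 against 1.97, 2.23 and 2.25. None of these overlapped between the 2 labels. Tef held 3.78, 3.24 and 4.2 at ZT0 and 23.1, 25.1 and 24.1 at ZT12, and Nr1d2 and Ciart moved with it.

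By the threshold used for all genes, 10 of the 16 clock genes departed, Dbp, Nr1d1, Ciart, Tef, Nr1d2 and Per3 downward and Arntl, Nfil3, Cry1 and Npas2 upward, against 40 genes (0.365%) of all tested, of which 16 (0.146%) were downward and 24 (0.219%) upward. Since these genes prompted the split, their count is a description only. The count over all genes was 25 without library 1 at ZT0, 26 without library 1 or 2 at ZT8 and 24 without library 3 at ZT12.

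A measured difference opposite in sign to the cosine makes a departure larger, so the test itself favours opposite signs. Of the 40 departing genes, 26 were rhythmic over the 4 times, so not all had a called cosine. Of the 30 outside the clock list, 28 had a ZT0 to ZT12 difference opposite in sign to their cosine. They included Usp2 and Lonrf3, the clock-linked outputs, Cipc, an inhibitor of the activator CLOCK, the tight junction genes Cldn8 and Cldn23, the arginase gene Arg2, the desaturase gene Scd1 and the growth factor genes Areg and Hbegf. Cipc, Cldn23, Areg and Hbegf were picked after their values were seen. Cldn8, a claudin of tight junctions in salt-absorbing epithelium, held 31.7, 25.8 and 29.7 at ZT0, 11.4, 8.02 and 11.2 at ZT4, 23.1, 18.8 and 13.3 at ZT8 and 6.67, 6.07 and 6.45 at ZT12. It held 17.4, 16.1 and 27.1 at ZT16 and 15.2, 11.6 and 21.2 at ZT20. Its departure was 3.23 ± 0.41 (limma adjusted p = 0.00086).

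Rhythmic genes outside the clock list were set against the same 2 references. Of the 169 whose fitted ZT0 to ZT12 difference was at least 0.5 in size on the log2 scale, 114 (67.5%) had a measured difference of the same sign and 55 the opposite sign, against 1 and 11 of the 12 clock genes that large. Against low salt day fed, 110 of the 318 rhythmic genes outside the clock list had a ZT0 to ZT12 difference of the same sign and 206 the opposite sign, beside 2 and 12 of the 14 clock genes. For the genes outside the list the cosine of the other 4 times was itself opposite in sign to low salt in 234 and the same in 82, whereas for clock genes it was the same in 12 of 14. The differences between these shares were not tested. All these signs come from the fit without the length score, which was above 0.2 in 2 libraries labelled ZT0 and 1 labelled ZT4. With that score in the fit, the genes called between ZT0 and ZT12 went from 629 to 69. The part of the length score in the shares was not tested. With no minimum on the fitted difference, lists went both ways. Of the 6 rhythmic heat shock genes 5 had the same sign as the cosine, as did all 3 rhythmic endoplasmic reticulum genes, 4 of 5 cholesterol genes, both fat-burning genes, the 1 nutrient transporter and Cirbp. The sign was opposite in all 3 clock-linked outputs, both xenobiotic metabolism genes, 3 of 5 fatty acid synthesis genes and 8 of 11 mitotic genes. It was also opposite in the 1 rhythmic gene each of sodium uptake and of sodium chloride exchange.

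Cirbp held 12.5, 16.7 and 13.8 at ZT0, between its values at ZT4 and ZT20, and 33.6, 24.5 and 30.1 at ZT12. Scd2 held 205, 150 and 183 at ZT0 and 75.1, 55.4 and 50.5 at ZT12, the former like ZT4 and ZT8 and the latter like ZT16. Cdc20 held 17.8, 19.1 and 16.6 at ZT0 and 26.2, 22.8 and 25 at ZT12, and its departure did not pass (-0.25 ± 0.26, limma adjusted p = 0.78). Hspa8 and Dnaja1 were the 2 heat shock genes to depart, but 1 departed when any 1 of 12 libraries was left out and without the filter on low values, and 0 did on the values as deposited. Both were high at ZT4 alone of the 4 times, so their fitted ZT0 to ZT12 differences of 2.02 and 2.05 rest on that time. A cosine describes such a shape poorly, and a departure from it need not mean unusual values at ZT0 or ZT12. Hspa8 held 989, 899 and 935 at ZT0 and 831, 893 and 826 at ZT12. Of the rhythmic mitotic genes, 8 of 11 had a measured sign opposite to the cosine, with fitted differences under 0.5 in 8 of the 11 and no departure called.

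**Figure D4:**
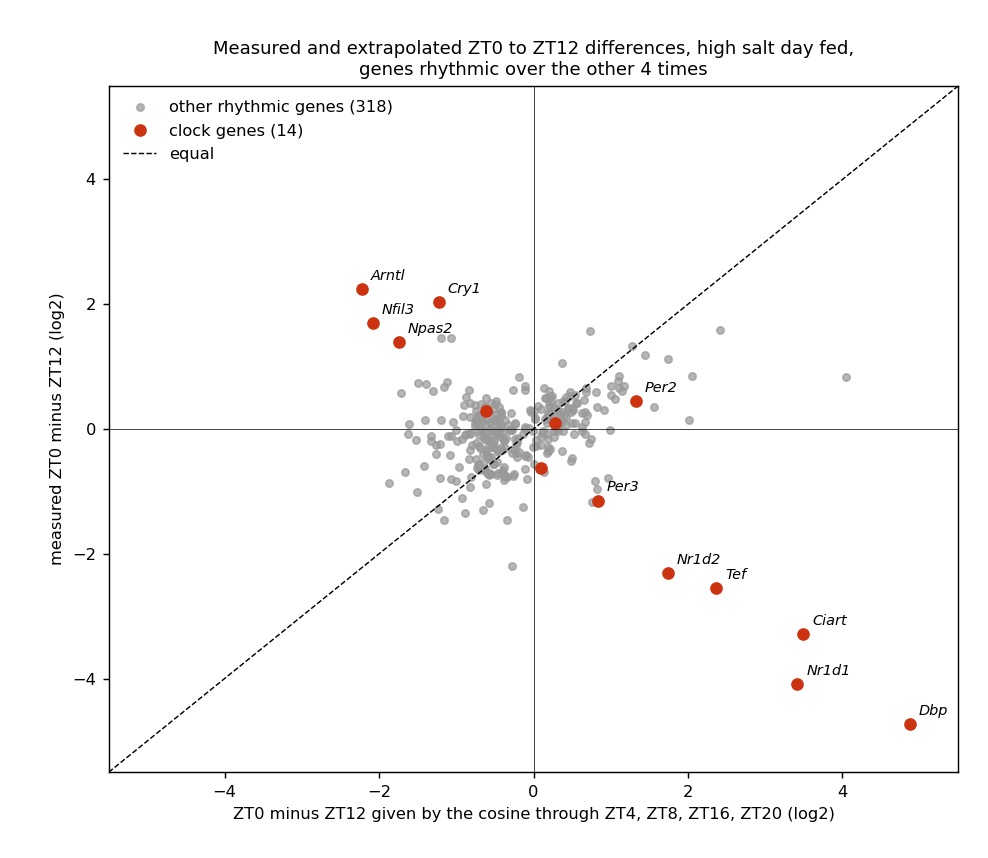
Measured difference of ZT0 from ZT12 (vertical, log2) against the difference given by the cosine through the other 4 times (horizontal, log2) for the 332 genes rhythmic over those times, with 14 clock genes in red and the dashed line marking equality. Dbp lies at 4.87 on the horizontal and -4.72 on the vertical axis and Arntl at -2.22 and 2.24, on the far side of the line, while 114 of 169 other genes with large fitted differences keep their sign.

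As labelled, 629 genes (5.73%) differed between ZT0 and ZT12, 273 higher at ZT0 (2.49%) and 356 lower (3.25%). Among the pairs that use these labels the count was higher only between ZT4 and ZT12, at 1235, and lowest between ZT0 and ZT8 and between ZT12 and ZT20, at 2 each. This count rested on single libraries. It was 23 without library 1 at ZT0, 68 without library 3 and 3693 without library 2, 34 to 80 without 1 of the 3 at ZT12, and 254 to 2167 without 1 library of the other times. With the length score in the fit it was 69, of which 51 were shared, and it was 16 without the libraries of length score above 0.2. On the values as deposited 89.4% of 1136 called genes were higher at ZT0, against 43.4% after rescaling, and the median gene was 0.46 higher. The clock list, which prompted the split, gave 11 calls of 16 (4 higher at ZT0 and 7 lower).

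By the naming rule, the 5 genes most raised at ZT0 against ZT12 were Steap4, Plet1, Arntl, Cldn8 and Cry1, and the 5 most lowered Dbp, Nr1d1, Snhg9, Ciart and Fxyd4. Steap4, a metalloreductase raised in inflammation, held 19.5, 10.7 and 5.15 at ZT0 and 1.3, 1.1 and 0.93 at ZT12, but 16.8, 0.715 and 0.71 at ZT4. Plet1, a surface protein of epithelial progenitors, held 415, 236 and 165 at ZT0, 564, 136 and 127 at ZT4 and 52.1, 34.2 and 34.4 at ZT12. In both genes library 1 at ZT4, 1 of the 3 with a length score above 0.2, stood with those labelled ZT0, and neither call held with the length score in the fit. Fxyd4, a regulator of the sodium pump, held 2.3, 5.15 and 2.6 at ZT0 and 26.4, 21.4 and 57 at ZT12, with a wide spread at the other times, and its call too was lost with that term. The calls of Arntl and Cldn8 did not pass without the libraries of length score above 0.2, which leaves 1 library at ZT0.

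Compared with low salt day fed, the ZT0 to ZT12 difference differed for 1049 genes (9.56%) and for 12 of the 16 clock genes. The high-salt difference was the higher in 5 of the 12, beside 4.66% of all genes, and the lower in 7, beside 4.9%. Outside the clock list the 5 smallest adjusted p belonged to Gsta3, Scd2, E2f2, Hsd11b2 and Acot1. Scd2 averaged 110 at ZT0 and 193 at ZT12 in low salt, and Acot1 5.76 and 2.87, each opposite in direction to the high-salt libraries. Hsd11b2, the enzyme that shields the mineralocorticoid receptor from glucocorticoids, averaged 102 and 212 in low salt, and its ZT0 to ZT12 difference was 1.52 higher in high salt (log2; limma adjusted p = 6.4e-07). Of the endoplasmic reticulum genes 13 of 20 differed in this comparison and of the heat shock genes 7 of 13.

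A cosine over all 6 labelled times gave 1266 rhythmic genes (11.5%), and 573 (5.22%) differed among the 6 times by the test without a fitted shape. For clock genes it moved the peaks: Dbp to 9.75 h, Nr1d1 to 15.7 h and Arntl to 22.1 h, with amplitudes of 0.92, 1.38 and 0.43 in place of 2.49, 2.04 and 1.13. The 6-time values of these genes therefore mix the opposed patterns of ZT0 and ZT12 with the rest.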

How the data were processed

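RNA-seq libraries from colon (poly(A)-selected, stranded) were processed by the authors with TopHat2 2.1.1 and Cufflinks 2.2.1 against mm10, per the submitters' processing notes. The deposited values were taken as FPKM per gene symbol, the unit Cufflinks gives, from that tool and the range of the values. For the gene annotation, the options and any filter before deposit, the sources used here give nothing. FPKM keep no fragment counts, so depth is known only in relative terms and no count test was run.

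Samples were grouped by their labels. Within each group's table of 24883 rows, libraries were divided by median-of-ratios factors (0.604 to 1.25 here, from genes at 1 FPKM or more in every library), genes with a mean of at least 1 were kept, and log2(FPKM + 0.5) was fitted with limma 3.58.1 in R 4.3.3 (lmFit, eBayes with trend and robust). This left 12 residual degrees of freedom over 18 libraries and 24 over the 36 of both day-fed groups. Fold changes of low genes are understated on this scale. P-values were Benjamini-Hochberg adjusted over all tested genes, with a threshold of 0.05. Rhythm over 4 times is a test of the cosine and sine coefficients of a 24 h period. The departure is the measured ZT0 to ZT12 difference minus that of the cosine. Gene positions and transcript lengths come from GENCODE vM21, on the same build as the files, and promoters from RefSeq. The fits were also run on simulated data with noise drawn independently for each gene and library. Such data lack the axis of variation that the real libraries share, so they give no error rate for these libraries. Alternatives tried were other pseudocounts, filters and scalings, a spread pooled over 72 libraries, a replicate block, leaving out each library, and, chosen after seeing the data, the length score as a covariate and leaving out libraries with a score above 0.2.

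The members and gene lists were chosen with earlier results of these data known. Genes named are all clock genes, up to 4 per list with the smallest adjusted p over the 4 times, the 10 largest amplitudes, the 5 largest differences each way of each comparison and the 5 smallest adjusted p of each difference from low salt day fed, without predicted genes, immunoglobulin and T cell receptor segments and symbols on several rows. Other list members are named where a count is spelled out. Values of some genes that meet this rule are not reported here.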

Additional observations from a re-analysis of the deposited data

Results flagged for a closer look

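The results below are those where the high salt day fed and low salt day fed groups differed in the same contrast by a test of the difference itself (limma interaction over 36 libraries, adjusted over all genes). They are taken from the clock genes and the genes with the smallest adjusted p.

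For the ZT0 minus ZT12 difference as labelled, high salt minus low salt was -7.51 on the log2 scale for Dbp, -7.40 for Nr1d1, -5.06 for Ciart, -3.97 for Nr1d2, -3.51 for Tef, -2.06 for Per3 and -1.16 for Per1. It was 3.14 for Cry1, 2.98 for Arntl, 2.1 for Npas2 and 1.89 for Nfil3. Among other genes it was 2.53 for Gsta3, 2.38 for Scd2, 2.35 for E2f2, 1.59 for Dnaja1, 1.52 for Hsd11b2, 1.14 for P4ha1 and 0.87 for Hspa8, and -2.17 for Acot1 and -0.63 for Rbmx. The adjusted p of the genes outside the clock list ranged from 3.74e-08 (Gsta3) to 0.0114 (Hspa8). ZT0 and ZT12 were set apart because of how clock genes looked there, so the clock values of this difference are a description.

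For the rhythm over ZT4, ZT8, ZT16 and ZT20, the length of the difference between the groups' rhythm vectors (amplitude and phase together, log2 scale) was 1.42 for Dbp, 1.15 for Per2, 1.08 for Nr1d1, 1.02 for Ciart, 0.94 for Nfil3 and 0.61 for Cry1. It was 1.5 for Hspa8, 1.35 for Dnaja1, 0.92 for P4ha1, 0.81 for Gsta3 and 0.54 for Rbmx. The adjusted p ranged from 1.02e-06 (Hspa8) to 0.0135 (Ciart). The clock values of this difference also depend on having set ZT0 and ZT12 apart, and are a description.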

How the results depend on the processing

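Counts of called genes are given in the order differing among the 4 times, 4-time rhythm, ZT4 against ZT16, ZT8 against ZT20, ZT0 against ZT12, departure, all 6 times, rhythm against low salt and ZT0 to ZT12 against low salt. They were 357, 332, 452, 15, 629, 40, 573, 132 and 1049. A change by over 1.5 times occurred as follows. Without a filter ZT0 against ZT12 gave 255. With a mean of at least 5 the first 3 gave 233, 202 and 278. On FPKM as deposited all 9 changed, to 76, 87, 71, 7, 1136, 24, 114, 1449 and 1635; of the last, 92.9% were higher against 48.7%, with a median shift of 0.48. Quantile normalization gave 9 for ZT8 against ZT20 and 1206 for ZT0 against ZT12. The spread pooled over 72 libraries gave 1106, 862, 971, 65 and 3406 for the first 5 and 3070 for all 6 times. With the length score as a covariate they were 1181, 994, 1150, 64, 69, 69, 1219, 686 and 2288. Without the libraries of length score above 0.2, ZT0 against ZT12 fell to 16 and departure to 26, with 175 among the 4 times, 263 for ZT4 against ZT16, 152 for all 6 times, 434 for rhythm against low salt and 513 for ZT0 to ZT12 against low salt. A cosine over all 6 times gave 1266. The cause of these changes was not tested.

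With 1 library left out the counts ran from 145 to 584, 142 to 677, 144 to 1329, 5 to 23, 23 to 3693, 24 to 52, 256 to 1260, 67 to 348 and 606 to 1310. The lowest of the first 3 came without library 3 at ZT4 and the highest without library 3 at ZT16. The others were lowest without library 2 at ZT8, library 1 at ZT0, library 3 at ZT12, library 3 at ZT4, library 3 at ZT4 and library 1 at ZT0, in order. They were highest without library 1 at ZT16, library 2 at ZT0, library 1 at ZT4, library 3 at ZT16, library 1 at ZT4 and library 2 at ZT0.

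Under the cosine over 6 times 8 named genes moved their peak by over 6 h: amplitudes were 0.43 for Arntl (22.1 h), 0.60 for Ciart (9.92 h), 0.92 for Dbp (9.75 h), 0.23 for Nfil3 (23.1 h), 1.38 for Nr1d1 (15.7 h), 0.52 for Nr1d2 (10.5 h), 0.85 for Tef (8.15 h) and 0.39 for Lonrf3 (2.58 h). Over all named genes and alternatives 238 values lost and 94 gained a call, and 5583 did neither.

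Whether libraries with the same replicate number belong together was not settled. Over 45 such pairs the median correlation of deviations was 0.03 (from -0.51 to 0.661), against -0.02 for other pairs. Of the 45, 19 were over 0.1, and 10 of 18 libraries correlated best with their own number out of 3. The fit with a replicate block gave 357, 293, 419, 18, 1216, 37, 619, 88 and 999.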
